A study of Mus musculus with 12 samples.

Results

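The expression of 52 genes of autophagy and the lysosome was followed in mouse bone marrow cells sorted as hematopoietic stem cells (HSCs). The genes were taken by name from the gene tables, which hold 31340 rows with 31272 gene names, and each of the 52 stood on a single row. Of the members, 34 encode proteins that build the autophagosome, 13 encode lysosomal hydrolases, lumen proteins and membrane proteins, 3 encode subunits of the vacuolar proton pump (V-ATPase), and 2 encode the transcription factors TFEB and TFE3. They were divided into 10 groups by role, and the autophagosome genes were set against the lysosomal genes.

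RNA-seq was performed on 12 libraries, 3 in each of the groups Ctrl, IR, Ab_IR and L_IR. All mice were wild type, the study's methods name C57BL/6 mice, and neither source gives the age of these animals. Ctrl is the control group and IR received sublethal total body irradiation. Ab_IR and L_IR were irradiated groups with a further factor labelled Ab or L, which the labels and methods used here do not spell out, so both names are used as given. Cells were collected 3 days after irradiation and sorted, per the study's methods, as lineage-negative, Sca-1 positive and c-Kit positive cells lacking Flt3 and CD34. Nothing says whether replicates came from separate mice, so p-values measure only the spread between these libraries, which may be technical.

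Autophagy encloses cytoplasm in a double membrane and hands it to the lysosome for digestion. The ULK kinase complex starts the process, a phosphatidylinositol 3-kinase complex marks the membrane, ATG9 and ATG2 supply lipid, and the conjugation enzymes attach ATG8 proteins (the LC3 and GABARAP families), to which cargo receptors bind. The lysosome is acidified by the V-ATPase and filled with cathepsins and other hydrolases, and TFEB and TFE3, which mTOR keeps in the cytoplasm in fed cells, switch on many of the genes involved. Autophagy maintains HSCs by clearing mitochondria, and by digesting ferritin it releases iron.

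Values were FPKM (fragments scaled to gene length and library size), so the levels of different genes can be compared. Without read numbers the sequencing depth is unknown, and counting error could not be set. The FPKM sum per library ranged from 344338 to 405123, with 11467 to 12167 genes at 1 FPKM or above. Zeros made up 44.1% of rows in Ctrl replicate 1 and 24.7% to 27.3% in the remaining 11 libraries. The median SD of a member on the log2(FPKM + 1) scale was 0.123 within Ctrl, 0.0549 within IR, 0.0617 within Ab_IR and 0.0473 within L_IR. Ctrl replicate 1 gave the highest of the 12 values for 9 members and the lowest for 8.

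The sorted cells were not uniform in the markers of other cells. Of 10 HSC genes, Hoxb5 was at no more than 0.07 FPKM, Fgd5 at no more than 0.22 FPKM, Mecom at no more than 0.25 FPKM and Slamf1 at no more than 0.88 FPKM. The genes of the positive gate were detected, Ly6a (Sca-1) at 25.9 to 61.5 FPKM, highest in IR, and Kit at 6.7 to 7 FPKM in IR and 17.4 to 25.5 FPKM elsewhere. Cd34, a gene of the negative gate, was listed at 15.6 to 20.7 FPKM outside IR and at 3.66 to 3.91 FPKM in IR. The summed level of 8 erythroid genes was 2560 to 3111 FPKM in Ctrl, 491 to 501 FPKM in IR, 2619 to 2820 FPKM in Ab_IR and 1373 to 1424 FPKM in L_IR. Bone, mast cell and megakaryocyte genes were lowest in IR too. The sum of 5 bone and stroma genes was 162.1 to 203.1 FPKM in Ctrl, 10.04 to 10.8 FPKM in IR and 49.4 to 56.8 FPKM in Ab_IR and L_IR. That of 6 mast cell and basophil genes was 598 to 680 FPKM in Ctrl, 211 to 218 FPKM in IR, 793 to 844 FPKM in Ab_IR and 494 to 517 FPKM in L_IR. That of 6 megakaryocyte genes was 51.4 to 67.6 FPKM in Ctrl, 12.01 to 13.98 FPKM in IR, 135.6 to 139.8 FPKM in Ab_IR and 83.6 to 89.2 FPKM in L_IR, so both lists were higher in Ab_IR than in Ctrl. The sum of 8 B and plasma cell genes, mostly Igkc, was 10054 to 13268 FPKM in Ctrl, 17434 to 18651 FPKM in IR, 17867 to 18495 FPKM in Ab_IR and 25593 to 26464 FPKM in L_IR. Nppa, a heart muscle transcript, reached 51.2 to 63.9 FPKM in every IR library and in Ctrl replicates 2 and 3, and no more than 0.26 FPKM in the rest. IR differs from Ab_IR and L_IR on that split, so apart from what Ctrl replicate 1 allows, the split and those group differences cannot be told apart. In bulk samples such as these, fewer cells of a type and less RNA per cell cannot be told apart either.

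Lysosomal transcripts were the more abundant ones. The lysosomal members had a median level of 39.0 FPKM (mean over the 12 libraries), and 6 of 13 reached 50 FPKM, led by Ctsd, the aspartic protease cathepsin D, at 201.6 FPKM. The median autophagosome member was at 7.7 FPKM, 23 of 34 were under 10 FPKM, and only Gabarap, an ATG8 protein, exceeded 50 FPKM, at 89.0 FPKM. Lamp1, the main glycoprotein of the lysosomal membrane, averaged 149.5 FPKM and Atp6v0d1, a stalk subunit of the V-ATPase, 57.3 FPKM. The regulators were low, Tfe3 at 3.9 FPKM and Tfeb at 3.14 FPKM. The least abundant member was Atg10, the conjugating enzyme for ATG12, at 3.04 FPKM.

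**Figure D1:**
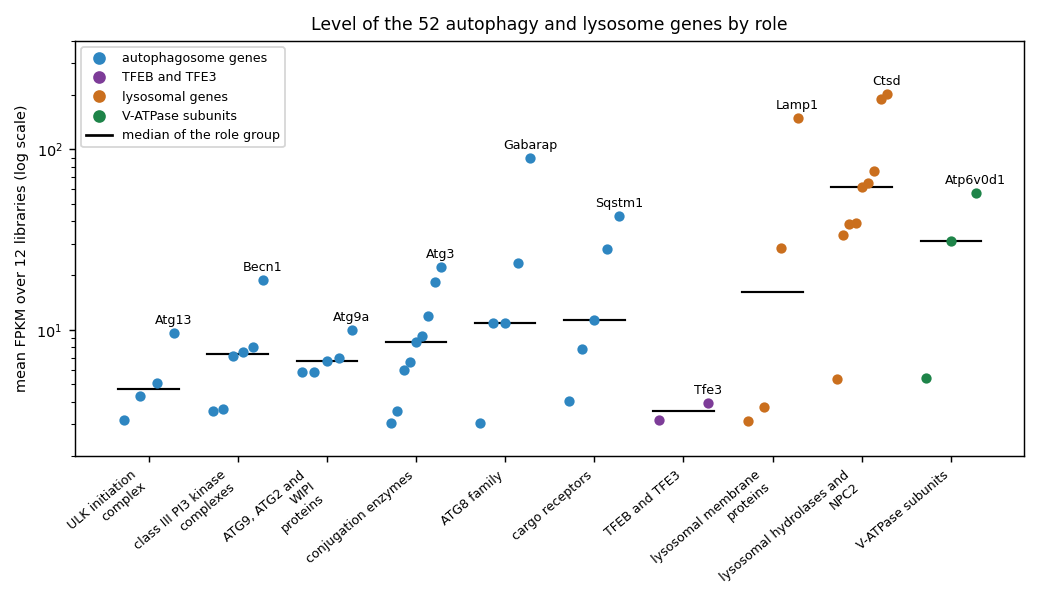
Mean FPKM over the 12 libraries (log scale) of each of the 52 members, grouped by role, with a bar at the median of each role group and the highest member named. Lysosomal hydrolases lie highest (median 61.9 FPKM), and most autophagosome genes lie under 10 FPKM.

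IR against Ctrl asks how irradiation changed the sorted cells, and the answer for this pathway was a set of modest shifts in both directions, with a rise of the 3 V-ATPase members. limma was fitted to log2(FPKM + 1) of every gene that reached 1 FPKM in 3 or more of the 6 libraries. Differences are given as log2 fold changes of FPKM + 1, which are too small for low genes, and p-values were adjusted by Benjamini-Hochberg over all genes tested. A gene is said here to pass at an adjusted p under 0.05, and to be called when its absolute log2 fold change was also above 1. All 52 members were tested in each of the 6 comparisons, and 2 were called in any of them, Atp6v1a and Ctsz. In IR against Ctrl these 2 were called, both higher, which is 3.85% of the members beside 7.60% of the 12072 genes tested. By adjusted p alone 24 members passed, 11 higher and 13 lower in IR, or 46.2% beside 43.1% of all genes. The balance of directions depended on the scaling: the members that passed were 12 higher and 7 lower under quantile normalization, 14 higher and 8 lower under median ratio scaling, and 12 higher and 5 lower with immunoglobulin genes left out. Of the 24, Mcoln1, Nbr1, Atg10, Wipi1 and Wipi2 no longer passed under any of these 3 scalings. Quantile normalization also lost Ctsd, Hexa, Lamp1 and Bnip3, and leaving out immunoglobulin genes also lost Optn, Gabarapl1 and Map1lc3b. The libraries of the 2 groups did not overlap for 33 members, or 63.5% beside 58.1%. The median log2 fold change was 0.02 over the members and -0.05 over all genes tested. Leaving out IR replicates 1, 2 or 3 lowered the count that passed to 10, 11 and 12. The count was also lower without the filter on low values and with the replicate number as a block, as given in the closing section. Only 9 of the 24 passed in all 6 fits without a library, namely Atp6v1a, Atp6v0d1, Ctsz, Gusb, Atg9a, Npc2, Atg4b, Bnip3l and Ulk2.

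How the Ab_IR and L_IR groups differed from IR was read from Ab_IR against IR and L_IR against IR, which share the IR libraries with the first comparison and with each other. Apart from what Ctrl replicate 1 allows, these differences cannot be told apart from the Nppa split. None of them is therefore credited to the Ab or L factor. In Ab_IR against IR 1 member was called (1.92% beside 7.57% of all genes), Atp6v1a, and 34 passed (65.4% beside 68.7%), 16 higher and 18 lower in Ab_IR, or 13 higher and 25 lower with immunoglobulin genes left out. In L_IR against IR Atp6v1a was again the 1 member called (1.92% beside 6.22%), and 38 passed (73.1% beside 66.8%), 18 higher and 20 lower in L_IR. Of these, 29 of the 34 and 31 of the 38 passed in every fit without a library. In levels, all 3 IR libraries lay above the other 9 libraries for 11 members and below them for 12, together 44.2% of the members beside 40.9% of 12699 genes.

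**Figure D2:**
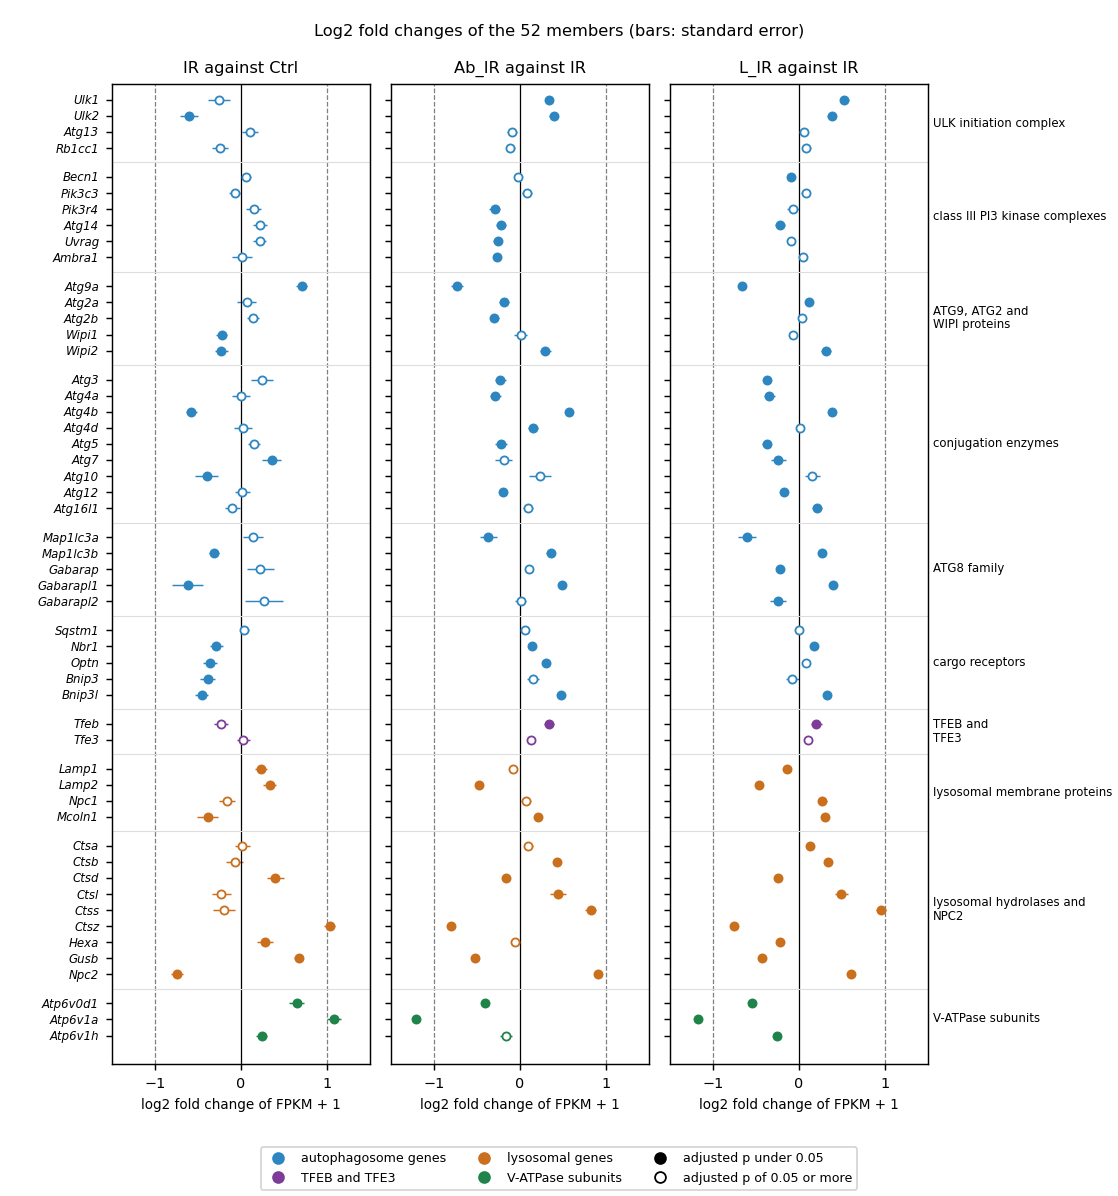
Log2 fold change of FPKM + 1 for each of the 52 members (rows, by role) in IR against Ctrl, Ab_IR against IR and L_IR against IR (panels). Bars are standard errors, filled points have an adjusted p under 0.05, and dashed lines stand at -1 and 1. Atp6v1a lies past 1 in IR against Ctrl and past -1 in the other 2 panels, and the panels share the IR libraries.

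The 3 V-ATPase members stood highest in IR. Atp6v1a (chr16:44085402-44139705, minus strand, GENCODE M21 on GRCm38) encodes the catalytic A subunit, which binds ATP. Its level was 27.5, 24.0 and 23.2 FPKM in Ctrl, 52.7, 53.9 and 54.4 FPKM in IR, 24.0, 22.6 and 21.5 FPKM in Ab_IR, and 22.5, 23.1 and 24.2 FPKM in L_IR. Every IR library was above all other libraries, whose groups overlapped each other. The log2 fold change was 1.08 in IR against Ctrl (SE 0.0771, limma adjusted p 1.53e-04), -1.21 in Ab_IR against IR (SE 0.0454, adjusted p 8.62e-07) and -1.17 in L_IR against IR (SE 0.0319, adjusted p 3.39e-07). With the Nppa split as a term in a fit of all 12 libraries, which is estimated only from Ctrl replicate 1 against the other Ctrl libraries, the last 2 were -1.42 and -1.39, and without Ctrl replicate 1, thus among libraries that carry Nppa, the first was 1.15.

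Atp6v0d1, the stalk subunit, was at 42.4, 49.9 and 50.01 FPKM in Ctrl and at 75.8, 72.0 and 76.2 FPKM in IR. It was at 55.3, 56.5 and 56.9 FPKM in Ab_IR and at 51.2, 51.4 and 49.9 FPKM in L_IR. The rise in IR over Ctrl was 0.65 (SE 0.082, adjusted p 0.00144), and the differences from IR were -0.40 in Ab_IR and -0.55 in L_IR, both passing. Atp6v1h, a regulatory subunit, was lower in level, at 5.05 ± 0.259 FPKM in Ctrl and 6.14 ± 0.106 FPKM in IR (SD, n = 3). It passed in IR against Ctrl with 0.24 (adjusted p 0.0267) and in L_IR against IR with -0.25, and in Ab_IR against IR its value was -0.16 (adjusted p 0.0748). Among 13 further V-ATPase genes of a wider list, 5 passed as higher and 1 as lower in IR against Ctrl, with a median of 0.23. That is 46.2% of them, near the 43.1% of all genes. The gene that was lower, Atp6v0a1, had a value of -0.285. Of the same genes, 10 passed as lower and 1 as higher in L_IR against IR, or 84.6% beside 66.8% of all genes, and 4 passed in each direction in Ab_IR against IR, or 61.5% beside 68.7%.

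The promoter windows of the members were searched for TCACGTGA and for the E-box CACGTG inside it. TCACGTGA holds the core letters of the element that TFEB and its relatives bind in lysosomal genes. Each motif reads the same on both strands, and every TCACGTGA also counts as a CACGTG. RefSeq windows on GRCm38.p6, 250 bases before to 50 after the start, were matched for 42 members. TCACGTGA was in 6 of these (14.3%) and in 1.12% of 27025 genes, and CACGTG was in 12 (28.6%) and in 8.09%. As the element is known from lysosomal genes, a list chosen for the lysosome would hold it more often whatever these libraries showed. By class, TCACGTGA was in 2 of 2 V-ATPase members with a window, 3 of 11 lysosomal members and 1 of 27 autophagosome members. The 30 bases around the matches are shown 5′ to 3′ on the gene's strand, with the match in capitals, since they set the genes that rose in IR beside some that did not.
Atp6v1a (chr16:44139373-44139402, minus strand, in an intron): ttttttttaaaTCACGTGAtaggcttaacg
Atp6v0d1 (chr8:105566050-105566079, minus strand, upstream of the gene): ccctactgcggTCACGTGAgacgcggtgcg
Ctsd (chr7:142387908-142387937, minus strand, in an exon): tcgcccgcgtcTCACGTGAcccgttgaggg
Ctsa (chr2:164833758-164833787, plus strand, in an exon): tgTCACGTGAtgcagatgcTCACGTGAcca
Mcoln1 (chr8:3500462-3500491, plus strand, in an exon): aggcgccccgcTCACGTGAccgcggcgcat
Atg3 (chr16:45158746-45158775, plus strand, upstream of the gene): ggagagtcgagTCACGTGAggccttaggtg

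Positions are on GRCm38.p6 and the gene features are those of GENCODE M21. The Atp6v1a match began 132 bases before the RefSeq start and that of Atp6v0d1 4 bases before it. The 6 genes did not share a direction. In IR against Ctrl, Atp6v1a, Atp6v0d1 and Ctsd passed as higher, Mcoln1, the lysosomal calcium channel, passed as lower at -0.39 (under none of the other scalings), and the values of Ctsa (0.02) and Atg3 (0.25) did not pass. The windows of Ctsz, Gusb, Atg9a and Npc2 held neither motif. A match is a string of letters, and binding was not measured.

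The lysosomal hydrolases moved in opposite directions within the group. Ctsz (chr2:174427493-174439039, minus strand) encodes cathepsin Z, a cysteine carboxypeptidase. It was at 149.3, 135.6 and 133.8 FPKM in Ctrl, 285.4, 283.8 and 287.2 FPKM in IR, 162.0, 169.8 and 158.5 FPKM in Ab_IR, and 173.5, 166.4 and 168.7 FPKM in L_IR. Each IR library exceeded all 9 others, and the Ab_IR and L_IR libraries all exceeded the Ctrl libraries. Its log2 fold change in IR against Ctrl was 1.03 (SE 0.0676, adjusted p 1.11e-04), close to the fold threshold. It was 0.86 under quantile normalization, and without Ctrl replicate 3 it came to the threshold itself, and in both cases the gene passed but was not called. Against IR it fell by 0.80 in Ab_IR and by 0.75 in L_IR.

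Gusb, which encodes beta-glucuronidase, was at 32.4, 31.8 and 31.2 FPKM in Ctrl, 51.6, 50.3 and 51.5 FPKM in IR, 35.7, 35.8 and 34.4 FPKM in Ab_IR, and 38.3, 37.1 and 37.9 FPKM in L_IR. The 4 groups did not overlap in any pair, and the rise in IR over Ctrl was 0.67 (SE 0.0528, adjusted p 2.22e-04). Ctsd rose from 175.2 ± 20.7 FPKM in Ctrl to 230.5 ± 3.3 FPKM in IR (SD, n = 3), a log2 fold change of 0.40 (adjusted p 0.0177) that did not pass in every fit without a library. Hexa, the alpha subunit of beta-hexosaminidase, passed with 0.28.

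Npc2, the small lumen protein that hands cholesterol to NPC1, went the other way. It was at 44.6, 44.1 and 39.7 FPKM in Ctrl, 24.2, 25.6 and 25.5 FPKM in IR, 49.4, 48.2 and 45.8 FPKM in Ab_IR, and 39.9, 38.3 and 38.6 FPKM in L_IR. All IR libraries were below all others. Its log2 fold change was -0.74 in IR against Ctrl (SE 0.0683, adjusted p 3.97e-04), 0.90 in Ab_IR against IR and 0.61 in L_IR against IR. Npc1, its membrane partner, was at 2.62 to 3.71 FPKM over the 12 libraries and had a value of -0.17 in IR against Ctrl that did not pass.

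Ctss, the cysteine protease cathepsin S of antigen-presenting cells, was highest in the irradiated groups with Ab or L. It was at 41.6, 57.3 and 46.3 FPKM in Ctrl, 38.5, 42.8 and 44.2 FPKM in IR, 80.3, 72.4 and 71.8 FPKM in Ab_IR, and 85.1, 84.1 and 77.8 FPKM in L_IR. Ctrl and IR overlapped, and every Ab_IR and L_IR library exceeded both. The log2 fold change against IR was 0.82 in Ab_IR (SE 0.0653, adjusted p 2.85e-05) and 0.96 in L_IR (SE 0.0581, adjusted p 1.07e-05). Ctss was also called in L_IR against IR under quantile normalization or without IR replicate 3. It was called in both comparisons with the Nppa split in the model, a term that only Ctrl replicate 1 informs. Ctsb, cathepsin B, and Ctsl, cathepsin L, also rose in both, by 0.43 and 0.44 in Ab_IR and by 0.34 and 0.49 in L_IR.

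Macrophage genes were mixed, and their sum was higher in Ab_IR and L_IR. The sum of 10 macrophage genes was 99.2 to 104.0 FPKM in Ctrl, 82.8 to 93.4 FPKM in IR, 117.6 to 129.4 FPKM in Ab_IR and 115.0 to 135.6 FPKM in L_IR. Of the list, 7 genes passed as higher and 2 as lower in Ab_IR against IR, and 7 as higher and 1 as lower in L_IR against IR, where 68.7% and 66.8% of all genes passed. Adgre1, the F4/80 antigen, was at 2.49 to 3.52 FPKM in IR and 10.9 to 14.6 FPKM in Ab_IR and L_IR. Mrc1, the mannose receptor, went the other way, at 5.42 to 6.35 FPKM in IR and 2.7 to 3.59 FPKM in those groups. Only Cd5l was listed at 0, and only in Ctrl replicate 1. The sum of 12 neutrophil and monocyte genes was 11058 to 12835 FPKM in Ctrl, 16478 to 16745 FPKM in IR, 11998 to 12580 FPKM in Ab_IR and 8864 to 9082 FPKM in L_IR, with 6 genes passing as higher and 2 as lower in IR against Ctrl. Xbp1, a transcription factor of plasma cells, was at 69.1 to 83.6 FPKM in Ctrl, 199.4 to 201.0 FPKM in IR, 91.1 to 100.1 FPKM in Ab_IR and 107.0 to 108.3 FPKM in L_IR. Of the same list, Igkc, Jchain and Cd79a were highest in L_IR, and Cd79b was lowest in IR. The part of any of these cells in the lysosomal and V-ATPase values was not tested.

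Lysosomal membrane proteins were mixed as well. Lamp1 rose from 137.3 ± 9.09 FPKM in Ctrl to 161.1 ± 4.14 FPKM in IR (SD, n = 3), by 0.23, and Lamp2, which takes part in chaperone-mediated autophagy, rose by 0.34. Lamp2 was at 30.1, 28.4 and 25.3 FPKM in Ctrl, 35.2, 35.9 and 35.1 FPKM in IR, 25.7, 24.6 and 25.1 FPKM in Ab_IR, and 24.5, 25.9 and 25.9 FPKM in L_IR. Its differences from IR were -0.48 in the Ab_IR libraries (adjusted p 1.56e-05) and -0.46 in the L_IR libraries (1.50e-05). Mcoln1, lower in IR, was at 5.32, 3.69 and 3.95 FPKM in Ctrl and 2.96, 2.99 and 3.16 FPKM in IR, and without Ctrl replicate 1 its value of -0.39 was -0.256. Neither its fall nor the rises of Lamp1 and Lamp2 over Ctrl passed in every fit without a library.

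**Figure D3:**
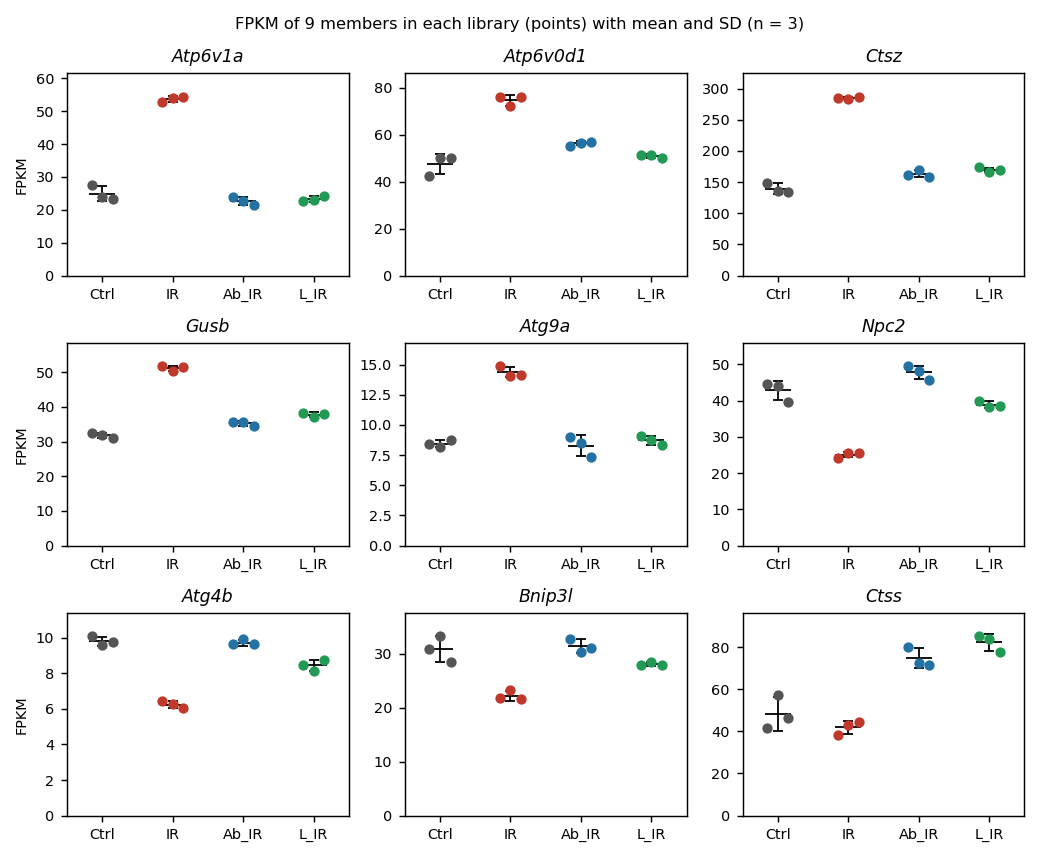
FPKM of 9 members in each of the 12 libraries, with a bar at the group mean and its SD (n = 3). IR stands above the other groups for Atp6v1a, Atp6v0d1, Ctsz, Gusb and Atg9a and below them for Npc2, Atg4b and Bnip3l, and Ab_IR and L_IR stand above Ctrl and IR for Ctss.

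Among the genes that start the autophagosome, the ULK complex gave its clearest values in Ulk2. This kinase, a relative of ULK1, was at 6.07, 5.11 and 4.6 FPKM in Ctrl, 2.88, 3.29 and 3.16 FPKM in IR, 4.56, 4.24 and 4.36 FPKM in Ab_IR, and 4.24, 4.25 and 4.55 FPKM in L_IR. All IR libraries were below all others. It fell by 0.60 in IR against Ctrl (SE 0.105, adjusted p 0.00494) and rose by 0.39 and 0.38 against IR in Ab_IR and L_IR. Ulk1 was higher in Ab_IR and L_IR than in IR by 0.34 and 0.53. Atg13, the most abundant of the complex at 9.6 FPKM, did not pass in any of these 3 comparisons, nor did Rb1cc1, the scaffold FIP200.

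None of the 6 genes of the class III phosphatidylinositol 3-kinase complexes passed in IR against Ctrl, with log2 fold changes of -0.07 to 0.22. Becn1, the scaffold beclin 1 and the most abundant of them, was at 18.5 to 18.7 FPKM in Ctrl and 19.2 to 19.6 FPKM in IR. Pik3c3, the lipid kinase itself, passed in none of the comparisons with IR. Against IR, Pik3r4, Atg14, Uvrag and Ambra1 passed as lower in Ab_IR, and Becn1 and Atg14 as lower in L_IR, none by more than 0.29.

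Atg9a, the membrane protein of the vesicles that seed the autophagosome, moved most of the autophagosome genes. It was at 8.42, 8.14 and 8.73 FPKM in Ctrl, 14.8, 14.1 and 14.2 FPKM in IR, 8.98, 8.54 and 7.33 FPKM in Ab_IR, and 9.09, 8.77 and 8.31 FPKM in L_IR. The IR libraries lay above the rest, and the other 3 groups overlapped. The log2 fold change was 0.70 in IR against Ctrl (SE 0.0602, adjusted p 3.02e-04), -0.73 in Ab_IR against IR (SE 0.0699, adjusted p 7.35e-05) and -0.66 in L_IR against IR (SE 0.041, adjusted p 1.21e-05). Its lipid transfer partners Atg2a and Atg2b did not pass in IR against Ctrl. The WIPI proteins, which read the lipid mark, both passed as lower in IR, each by 0.23, but neither did under any of the 3 other scalings or in every fit without a library. Wipi2 passed as higher in Ab_IR and L_IR than in IR, by 0.30 and 0.32.

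Of the 9 conjugation enzymes and their substrates, Atg4b, the protease that primes ATG8 proteins, moved most. It was at 10.1, 9.58 and 9.74 FPKM in Ctrl, 6.42, 6.28 and 6.05 FPKM in IR, 9.65, 9.93 and 9.63 FPKM in Ab_IR, and 8.45, 8.16 and 8.77 FPKM in L_IR. IR was below all other libraries, and Ab_IR overlapped Ctrl. The log2 fold change was -0.57 in IR against Ctrl (SE 0.0602, adjusted p 6.74e-04), 0.57 in Ab_IR against IR and 0.38 in L_IR against IR. Atg7, the activating enzyme, passed as higher in IR with 0.36 (adjusted p 0.0458) and Atg10 as lower with -0.40, and neither held in every fit without a library, nor Atg10 under any other scaling. Atg3, the most abundant at 22.4 FPKM, was at 17.7 to 25.5 FPKM in Ctrl and 24.7 to 27.3 FPKM in IR, overlapping, and was lower than IR by 0.23 in Ab_IR and by 0.37 in L_IR.

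The ATG8 genes split between members. Gabarapl1 was at 37.1, 22.5 and 24.4 FPKM in Ctrl, 17.6, 18.1 and 16.8 FPKM in IR, 24.7, 25.6 and 24.5 FPKM in Ab_IR, and 24.3, 23.0 and 22.7 FPKM in L_IR, so that Ctrl replicate 1 was the highest and IR the lowest. Map1lc3b, the usual marker of autophagosomes, was at 11.1 to 11.7 FPKM in Ctrl and 8.67 to 9.52 FPKM in IR. They changed in IR against Ctrl by -0.62 (adjusted p 0.0332) and -0.31 (adjusted p 0.00886), but neither passed in every fit without a library. Without Ctrl replicate 1 Gabarapl1 was at -0.405 (limma adjusted p 0.00165). Both rose against IR in Ab_IR and L_IR, Gabarapl1 by 0.49 and 0.40 and Map1lc3b by 0.36 and 0.27. Map1lc3a, at 3.05 FPKM the lowest of the family, differed from IR by -0.37 in Ab_IR and -0.60 in L_IR. Gabarap, at 61.8, 93.3 and 88.6 FPKM in Ctrl and 90.9 to 95.2 FPKM in IR, did not pass in IR against Ctrl.

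Of the 5 cargo receptors, 4 passed as lower in IR against Ctrl (43.1% of all genes passed, in either direction), with Bnip3l, a receptor that removes mitochondria from maturing red cells, the furthest. Bnip3l was at 31.0, 33.2 and 28.4 FPKM in Ctrl, 21.9, 23.3 and 21.6 FPKM in IR, 32.8, 30.4 and 31.2 FPKM in Ab_IR, and 27.95, 28.5 and 27.9 FPKM in L_IR. The IR libraries were below all others. Its log2 fold change was -0.46 in IR against Ctrl (SE 0.076, adjusted p 0.0042), 0.48 in Ab_IR against IR and 0.33 in L_IR against IR. All 8 erythroid genes summed above also passed as lower in IR against Ctrl and as higher in Ab_IR and L_IR against IR, and their part in Bnip3l was not tested. Nbr1, Optn and Bnip3 passed as lower in IR with -0.28, -0.36 and -0.39, and of these 4 receptors only Bnip3l passed in every fit without a library. Nbr1 and Optn no longer passed with immunoglobulin genes left out, nor Nbr1 and Bnip3 under quantile normalization. Sqstm1, the receptor p62 and the most abundant, stayed at 40.4 to 47.0 FPKM in all 12 libraries and passed in none of the 6 comparisons.

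Tfeb was at 3.45, 3.28 and 2.98 FPKM in Ctrl, 2.43, 2.60 and 2.81 FPKM in IR, 3.43, 3.79 and 3.46 FPKM in Ab_IR, and 3.07, 2.99 and 3.42 FPKM in L_IR. The IR libraries were the lowest, with a value of -0.23 against Ctrl that missed the threshold (adjusted p 0.0661), and Tfeb was higher than IR by 0.34 in Ab_IR (limma adjusted p 0.0019) and in L_IR by 0.20 (0.0239), the latter not passing under quantile normalization or median ratio scaling. Tfe3, at 3.46 to 4.28 FPKM, passed in no comparison.

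Set side by side, autophagosome and lysosomal members had near-zero median log2 fold changes in IR against Ctrl, 0.01 and 0.02, beside -0.05 over all genes tested. In Ab_IR against IR the medians were 0.01 and 0.07 (all genes 0.06), and in L_IR against IR 0.03 and 0.13 (all genes 0.07). The signs of 3 of these medians depended on the scaling. In Ab_IR against IR the autophagosome median was -0.041 under quantile normalization, -0.047 under median ratio scaling and -0.127 with immunoglobulin genes left out, and the lysosomal median was -0.066 under quantile normalization and -0.049 with immunoglobulin genes left out. In L_IR against IR the autophagosome median was -0.071 under quantile normalization and -0.045 under median ratio scaling. The spread differed. Lysosomal members had a median absolute log2 fold change of 0.28, 0.43 and 0.34 in the 3 comparisons, and autophagosome members 0.22, 0.22 and 0.19, beside 0.28, 0.29 and 0.24 over all genes. Of the lysosomal members 61.5%, 69.2% and 100% passed, in both directions each time, and of the autophagosome members 38.2%, 64.7% and 61.8%, beside 43.1%, 68.7% and 66.8% of all genes. In Ab_IR against IR both shares were thus near that of all genes. The V-ATPase members had medians of 0.65, -0.40 and -0.55. Lysosomal transcripts are the more abundant, and on the log2(FPKM + 1) scale the same ratio gives a smaller value in a low gene. These are descriptions of chosen lists, and the difference between the lists was not tested.

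**Figure D4:**
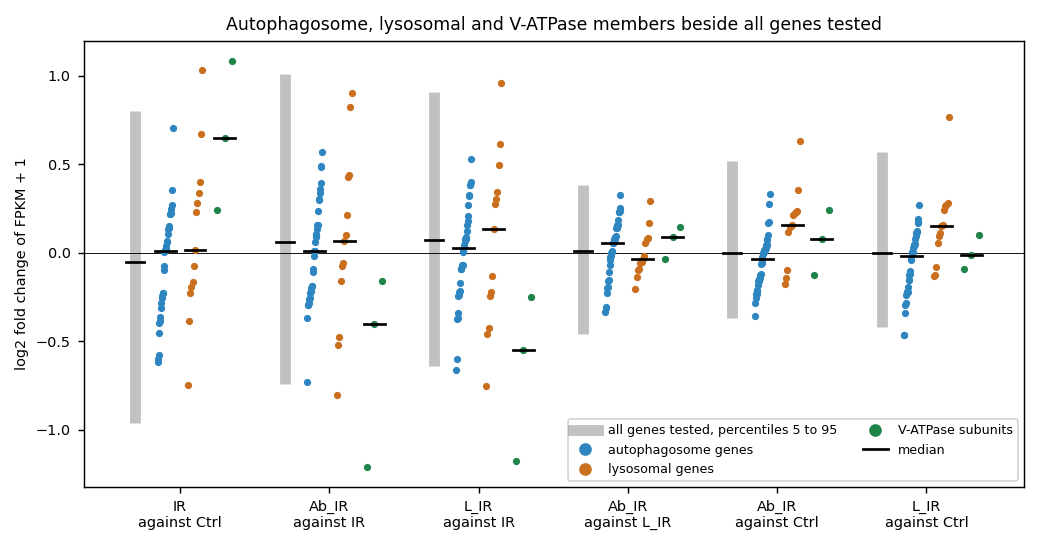
Log2 fold changes of FPKM + 1 in the 6 comparisons for autophagosome, lysosomal and V-ATPase members (points, bar at the median) beside all genes tested (gray, percentiles 5 to 95, with the median). Medians of the autophagosome and lysosomal members stay within 0.16 of zero, and 2 V-ATPase members stand apart in the comparisons with IR.

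Ab_IR against L_IR sets the irradiated groups with a further factor beside each other. No member was called, where 0.533% of 12194 genes were, and 16 passed (30.8% beside 38.0%), 8 in each direction. That balance did not hold with immunoglobulin genes left out, which shifts the median of all genes by -0.13: 1 member then passed as higher in Ab_IR and 18 as lower, and Atp6v0d1, Npc2, Bnip3l, Hexa, Atg4b, Optn and Bnip3 no longer passed as higher. At an unadjusted p under 0.05 limma gave 23 of the 52 members, a share no larger than that of all genes (5870 of 12194). Npc2 was higher in Ab_IR by 0.29 (SE 0.0408, adjusted p 0.00183) and Gabarap by 0.33 (SE 0.0558, adjusted p 0.00412). Gabarap was at 106.8, 96.3 and 99.5 FPKM in Ab_IR and 75.2, 83.6 and 81.9 FPKM in L_IR, without overlap. Ambra1, a regulator of beclin 1, was lower in Ab_IR by 0.31 (SE 0.0445, adjusted p 0.00208), at 6.38, 6.59 and 6.01 FPKM against 8.03, 8.13 and 8.02 FPKM. These 3 were among 8 of the 16 that passed in every fit without a library. Without L_IR replicate 3 the number that passed was 8, and with all 12 libraries in a single fit it was 7.

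Against Ctrl, few members of the Ab_IR and L_IR groups stood apart. In Ab_IR against Ctrl no member was called (0.923% of 12134 genes were) and none passed (2.10% of all genes did). limma gave 8 of the 52 members at an unadjusted p under 0.05, a share no larger than that of all genes (2533 of 12134). The libraries did not overlap for 16 members, or 30.8% beside 33.5%. With all 12 libraries in a single fit, which takes its spread from all groups, 10 members passed, and without Ctrl replicates 1 or 2 the number was 2 and 1. In L_IR against Ctrl no member was called (2.65% of 12251 genes were). At an unadjusted p under 0.05 limma gave 12 of the 52 members beside 3030 of the 12251 genes, and 4 members passed (7.69% beside 8.84%). Ctss was higher by 0.77 (SE 0.121, adjusted p 0.0135) and Gusb by 0.24 (adjusted p 0.0453), and Map1lc3a and Bnip3 were lower by values of -0.46 each. The libraries did not overlap for 18 members, or 34.6% beside 36.1%. None of the 4 passed in every fit without a library, and Gusb and Map1lc3a did not pass with immunoglobulin genes left out. The number that passed was 10 without Ctrl replicate 1, 2 without Ctrl replicate 3, 1 without L_IR replicate 1, and 0 without L_IR replicates 2 or 3, and it was 11 with all 12 libraries in a single fit. For these other fits, and for those of Ab_IR against Ctrl, the share of all genes that passed was not computed. A value that did not pass does not show that a group was like Ctrl, whose libraries had the widest spread.

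**Figure D5:**
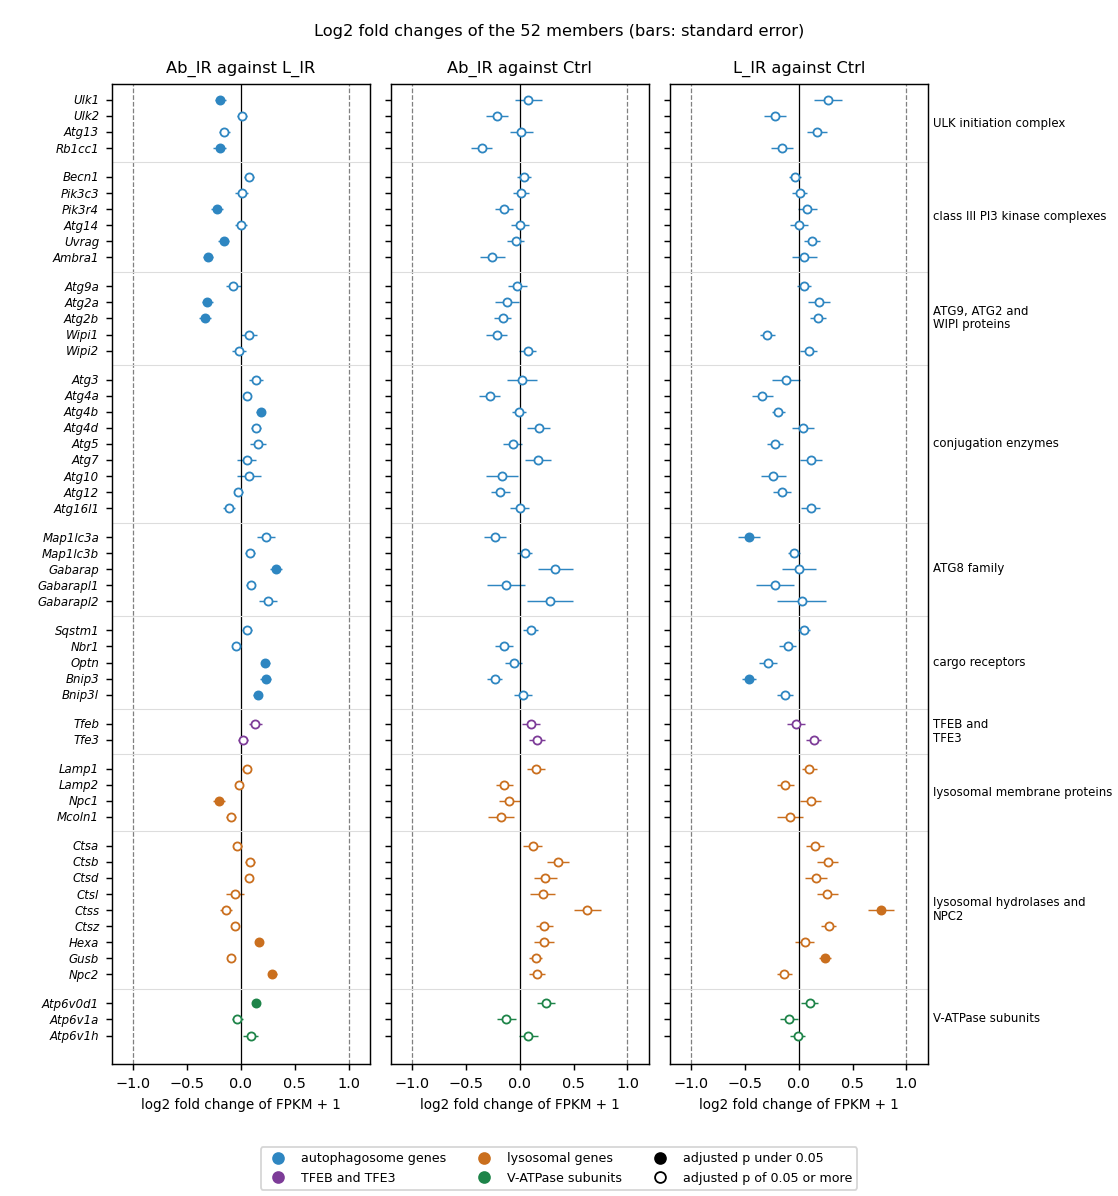
Log2 fold change of FPKM + 1 for each of the 52 members (rows, by role) in Ab_IR against L_IR, Ab_IR against Ctrl and L_IR against Ctrl (panels). Bars are standard errors, filled points have an adjusted p under 0.05, and no member reaches the dashed lines at -1 and 1.

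A wider list held 92 further genes of the same pathways, of which 88 or 89 were tested per comparison. Its strongest movement was among hydrolases and lumen proteins that are not members. Ctse, an intracellular aspartic protease, fell from 156.0 to 180.9 FPKM in Ctrl to 34.2 to 35.9 FPKM in IR, which is -2.26 in log2 terms (limma adjusted p 1.12e-05, SE 0.0742). Ctse was at 158.7 to 169.7 FPKM in Ab_IR and 126.4 to 129.4 FPKM in L_IR, or 2.20 and 1.84 above IR. The erythroid sum given above was likewise lowest in IR and lower in L_IR than in Ctrl and Ab_IR, and its part in Ctse was not tested. Gm2a, the activator protein for ganglioside breakdown, was called lower in IR with -1.10 and higher in Ab_IR and L_IR than in IR, with 1.123 and 1.003. Neu1, the lysosomal sialidase, was called higher in IR with 1.09, at 31.1 to 32.5 FPKM in Ctrl and 68.1 to 70.5 FPKM in IR, and lower in L_IR than in IR with -1.02. Ctsc, the cathepsin that activates granule proteases, was called higher in IR with 1.002, at the fold threshold, at 16.1 to 18.0 FPKM in Ctrl and 35.02 to 36.3 FPKM in IR.

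The other calls of the wider list were cathepsins and a membrane protein higher in Ab_IR or L_IR. In each comparison with IR 5 genes were called, or 5.68% beside 7.57% for Ab_IR and 6.22% for L_IR. Against Ctrl 1 gene was called in each, or 1.14% beside 0.923% for Ab_IR and 2.65% for L_IR. Ctsh was higher than IR by 1.42 in Ab_IR and 1.11 in L_IR, at 4.77 to 5.60 FPKM in IR and 11.8 to 16.4 FPKM in the other 2 groups. Ctsk, the bone-resorbing cathepsin, was called in Ab_IR against IR (1.28) and against Ctrl (1.10), at 2.47, 2.91 and 2.50 FPKM in Ab_IR and no more than 1.08 FPKM elsewhere. It was at 0.67 to 0.72 FPKM in Ctrl and 0.39 to 0.62 FPKM in IR. In both comparisons it thus met the filter of 1 FPKM in 3 libraries only through Ab_IR, where it is high. These calls are no independent support, and the Ab_IR counts above include them. Ctsw, a cathepsin of cytotoxic lymphocytes, was called in L_IR against IR (1.05) and against Ctrl (1.07). Cd63, a membrane tetraspanin, was called in Ab_IR against IR with 1.121. Cd63, and Gm2a in the comparisons with IR, fell outside the naming rule and were added after their values were seen. In IR against Ctrl 39 of 88 genes of this list passed, 19 higher and 20 lower, or 44.3% beside 43.1% of all genes, and 4 were called, or 4.55% beside 7.60%. In this comparison the genes for fusion of autophagosomes with lysosomes had a median log2 fold change of 0.09.

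Ncoa4, the receptor that carries ferritin to the lysosome, was added to the named genes after its values were seen. It was at 30.04, 26.6 and 25.7 FPKM in Ctrl, 31.3, 31.3 and 31.2 FPKM in IR, 21.6, 20.9 and 20.2 FPKM in Ab_IR, and 23.3, 22.8 and 23.6 FPKM in L_IR. The Ab_IR and L_IR libraries lay below all Ctrl and IR libraries. Its value in IR against Ctrl was 0.19 (adjusted p 0.0838). It was lower than IR by 0.56 in Ab_IR (SE 0.0371, adjusted p 1.19e-05) and by 0.41 in L_IR (SE 0.0244, adjusted p 9.44e-06), and its differences from Ctrl, -0.37 and -0.23, did not pass.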

How the data were processed

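Poly(A) RNA libraries of 12 samples of sorted cells were compared, grouped by the titles and treatment labels. The methods name fastp for trimming, RSEM for gene quantification and DESeq2 for testing by the authors. The submitters' processing notes name fastp, HISAT2, StringTie, GRCm38 and mm10, and the annotation is not given in the sources used here. The deposited values, 1 file per library, were read as FPKM, since FPKM times gene length in kb summed to 913577 to 945263 per library. Whole-read steps were not seen among low values, and counts were not recovered.

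Each pair of groups was fitted on log2(FPKM + 1) with limma 3.58.1 in R 4.3.3 (trended eBayes), keeping genes at 1 FPKM or more in 3 libraries. The count test of the study was not applied, as FPKM are not counts. Members, role groups, wider list, markers and tests were chosen with earlier results of these data known. Named genes were every called member, from each role group the most abundant member and that with the largest fold change, and the 3 largest rises and falls called in the wider list. Other members are named where a sentence turns on them. Alternatives were a pseudocount of 0.1, no filter, 3 scalings (quantile, median ratio, without 305 immunoglobulin rows), no trend, all 12 libraries in 1 fit, a replicate block, an Nppa split at 10 FPKM and leaving out each library. On simulated data, limma called 90.8% of 196 genes changed by 1.5 on the log2 scale among 11765 tested for IR against Ctrl, the lowest share, and 99.5% of 193 among 11465 for L_IR against IR, the highest. Gene positions came from GENCODE M21. The replicate numbers were not treated as pairs in the main fits. Python 3.11.15 and matplotlib 3.10.9 drew the figures.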

Additional observations from a re-analysis of the deposited data

How the results depend on the processing

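No result turned direction among called genes, and Atp6v1a was called in its 3 comparisons under every alternative run. In IR against Ctrl the 2 members called became 1 under quantile normalization and 1 to 2 without a library, Ctsz being the one lost (0.86 with quantile normalization, and at the fold threshold without Ctrl replicate 3). In Ab_IR against IR the Nppa split as a term gave 2 called members, the second being Ctss, but that term rests on Ctrl replicate 1 alone. In L_IR against IR quantile normalization and the Nppa split each gave 2, as did the fit without IR replicate 3 (range 1 to 2 over the libraries left out). The medians of the lists are small and depend on scaling. In Ab_IR against IR the autophagosome median was -0.127 without immunoglobulin genes, and the lysosomal median -0.066 with quantile normalization, 0.012 with median ratio scaling, -0.049 without immunoglobulin genes and -0.092 with the Nppa split. In L_IR against IR the autophagosome median was -0.071, -0.045 and -0.031 and the lysosomal median 0.089, 0.064 and 0.037 with quantile normalization, median ratio scaling and the Nppa split. In Ab_IR against L_IR leaving out immunoglobulin genes gave -0.078 and -0.175. That alternative shifted the median of all genes by -0.134 in Ab_IR against IR and by -0.127 in Ab_IR against L_IR, and turned the sign of Nbr1 in the former, which no other scaling did for any member that passed. The count of members that passed in IR against Ctrl was 15 without the filter. Same-numbered libraries of 2 groups correlated at -0.269 to 0.208 in their deviations from the group means, over 0.1 in 2 of 18 pairs. Libraries with different numbers correlated at -0.234 to 0.29, over 0.1 in 3 of 36 pairs. The numbers thus gave no sign of pairing, but with 3 libraries per group this cannot exclude a shared batch. With the replicate block the counts that passed were 15 in IR against Ctrl, 7 in Ab_IR against L_IR and 1 in L_IR against Ctrl, and no called member was lost. The cause of these differences was not tested. Unknown depth limits what can be said of members near 3 FPKM, such as Atg10, Map1lc3a and Tfeb.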
